A study of Mus musculus with 36 samples.

Results

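Mouse embryonic stem cells (ESCs) that lacked JARID2 in addition to the Polycomb-like proteins were compared with ESCs that lacked the Polycomb-like proteins alone. The comparison used 6 of the 36 RNA-seq libraries of the series, 3 of the quadruple knockout (QKO, PCL1-3&JARID2 QKO) and 3 of the triple knockout (TKO, PCL1-3 TKO), and the members are all genes counted in those libraries. PCL1-3 are the Polycomb-like proteins, encoded by Phf1, Mtf2 and Phf19, so both groups lacked these proteins and the groups differed in Jarid2. Libraries used beside them were 3 of PclWT ESCs (the wild-type line of the TKO), 3 each of QKO and TKO epiblast-like cells (EpiLCs), and 3 each of JARID2 KO (J2KO) and matched wild-type (J2WT) ESCs. All lines carry the strain label C57BL/6. ESCs were grown on gelatin in GMEM with 20% FBS, LIF, 3 µM of the GSK3 inhibitor CHIR99021 and 1 µM of the MEK inhibitor PD0325901, and EpiLCs were made from them in 2 days with 20 ng/ml activin A and 12 ng/ml bFGF. Each genotype was 1 cell line, so the genotype and any other property of that line cannot be told apart. The labels do not say whether replicates were separate cultures, so the p-values measure only the spread between libraries.

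Polycomb repressive complex 2 (PRC2) places methyl groups on lysine 27 of histone H3 at silent developmental genes. Its core of EZH1 or EZH2, EED and SUZ12 joins either a Polycomb-like protein, giving PRC2.1, or JARID2 and AEBP2, giving PRC2.2, and the mark is read by canonical PRC1 through its CBX subunits. TKO ESCs therefore keep PRC2.2, while QKO ESCs lack the Polycomb-like proteins and JARID2 together. The comparison addresses what the remaining JARID2 contributes to gene expression when the Polycomb-like proteins are absent.

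The libraries held 8097673 to 9302561 counts in genes in QKO ESCs and 9241009 to 10182668 in TKO ESCs. QKO replicate 2 held 2.09% of its counts in genes annotated as ribosomal RNA, against 0.815% and 0.461% in the other QKO libraries and 0.26% to 0.584% in TKO libraries. No pair of replicates agreed within counting noise. The chi-square per degree of freedom between them was 2.56 to 11.4 in QKO ESCs and 2.17 to 4.43 in TKO ESCs. The larger QKO values, 7.48 and 11.4, were those of the pairs with replicate 2. Each library was counted as a sample of its own, but such a spread does not show whether libraries came from separate cultures. Transcripts of naive and general pluripotency markers were detected in these cells. All 15 naive and all 9 general pluripotency markers had enough counts to be tested. So did 16 of 17 formative and primed markers, so this does not tell those states apart. Nanog, a core factor of ESC identity, stood at 1355, 1344 and 1381 CPM (counts scaled to library size) in QKO ESCs and at 1621, 1507 and 1452 CPM in TKO ESCs.

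The genes removed in the lines were read first. Mtf2 had 35.8, 38.8 and 39.2 CPM in QKO ESCs and 41.3, 45.6 and 44.8 CPM in TKO ESCs, against 422, 418 and 418 CPM in PclWT ESCs. Phf1 had 0.463 to 0.762 CPM in QKO ESCs and 0.504 to 0.652 CPM in TKO ESCs, against 6.21 to 9.42 CPM in PclWT ESCs, and Phf19 had 0.109 to 0.695, 0.869 to 1.51 and 1.5 to 1.94 CPM in QKO, TKO and PclWT ESCs. Mtf2 and Phf1 thus separated both knockouts from PclWT, and Phf19 was too low in all 3 groups to do so. Jarid2 transcript had 401, 399 and 385 CPM in QKO ESCs and 443, 464 and 453 CPM in TKO ESCs, a log2 fold change of -0.20 (SE 0.0438, adjusted p = 0.00111). Counts over the whole gene do not show whether a functional JARID2 is made, so they do not check this label. In the separate JARID2 KO line Jarid2 had 410 to 413 CPM, against 444 to 467 CPM in J2WT ESCs.

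Loss of JARID2 on the TKO background was accompanied by more genes at lower than at higher transcript levels. Of 12169 genes with a mean normalised count of at least 15, 170 rose in QKO ESCs (1.4% of those tested) and 381 fell (3.13%), at an adjusted p under 0.05 in edgeR's quasi-likelihood test and a change of more than 2-fold. The median log2 fold change over all tested genes was -1.43e-05. Without the fold limit, 2494 genes were higher and 2661 lower at that adjusted p. The libraries of the QKO and TKO groups did not overlap for 161 of the 170 genes that rose and for 380 of the 381 that fell. Genes that meet both limits with 3 libraries a group mostly have separate libraries, so these counts add no support of their own. The share over all tested genes is not given here. Among the 9 genes that rose with overlapping libraries were Lars2, with 531, 1708 and 293 CPM in QKO ESCs and 390, 135 and 192 CPM in TKO ESCs, and Mir6236, with 425, 1278 and 196 CPM in QKO ESCs and 268, 74.8 and 117 CPM in TKO ESCs. Both were highest in QKO replicate 2, the library with the largest ribosomal RNA share.

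**Figure D1:**
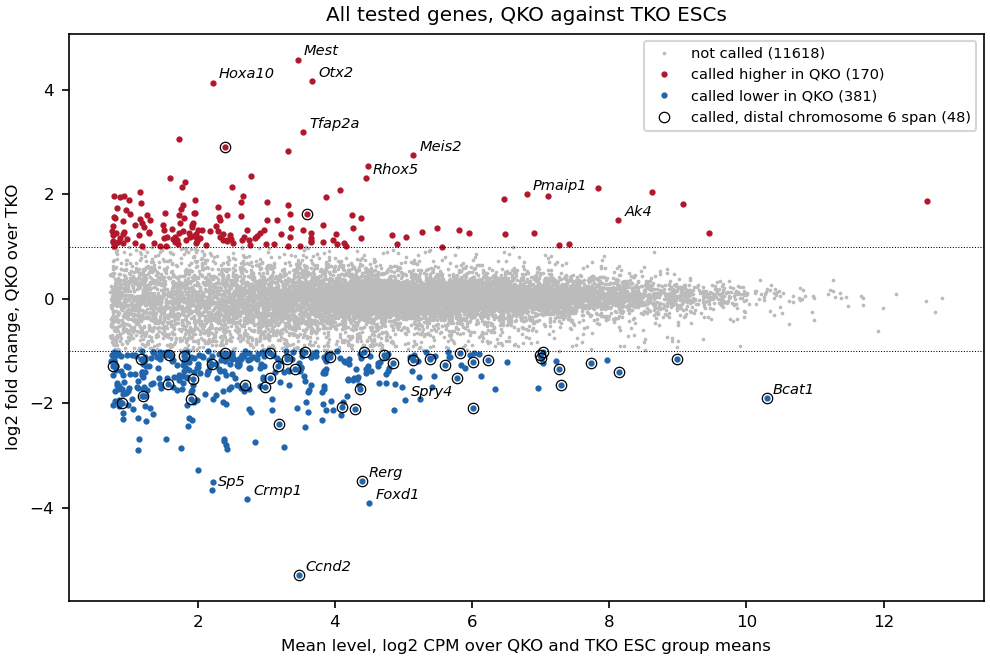
Log2 fold change of QKO over TKO ESCs (vertical axis) against the mean level in log2 CPM (horizontal axis) for each of the 12169 tested genes, with dotted lines at 2-fold in each direction. The 170 genes that rose and the 381 that fell lie outside the lines, and circles mark those of them in a stretch of distal chromosome 6 described with its own plot.

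The genes that rose most were led by an imprinted gene and by developmental transcription factors. Mest, a paternally expressed imprinted gene, had 21.1, 19.95 and 22.4 CPM in QKO ESCs and 1.11, 0.652 and 0.838 CPM in TKO ESCs, a 23.9-fold difference (log2 4.58, SE 0.183, adjusted p = 1.71e-13). The PclWT mean was 45.1 CPM, so QKO lay between TKO and PclWT. Otx2, a homeobox factor of formative pluripotency and the anterior neural plate, had 26.6, 21.9 and 23.7 CPM in QKO ESCs and 1.31, 1.09 and 1.57 CPM in TKO ESCs (log2 4.17, SE 0.17, adjusted p = 2.17e-13), with a PclWT mean of 0.22 CPM. Tfap2a, an AP-2 factor of neural crest and surface ectoderm, had 21.7, 19.7 and 21.6 CPM in QKO ESCs and 1.81, 1.85 and 3.25 CPM in TKO ESCs (log2 3.19, SE 0.166, adjusted p = 7.58e-12). In each of these genes the lowest QKO library was more than 2-fold above the highest TKO library.

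Meis2 and Meis1, TALE homeobox genes whose products partner with HOX proteins on DNA, also rose. Meis2 had 64.3, 60.6 and 60.1 CPM in QKO ESCs and 9.07, 7.06 and 11.2 CPM in TKO ESCs (log2 2.75, SE 0.101, adjusted p = 4.67e-14), and Meis1 had 4.98, 4.57 and 5.54 CPM in QKO ESCs and 0.806, 1.2 and 1.05 CPM in TKO ESCs (log2 2.31, SE 0.243). Osr2, a zinc finger factor of palate and limb, had 44.2, 35.8 and 34.8 CPM in QKO ESCs and 6.55, 6.73 and 6.28 CPM in TKO ESCs (log2 2.55, SE 0.118). Tlx1, a homeobox gene required for the spleen, rose as well (log2 2.25, SE 0.273). Of 227 genes of the factor families of development in the files, 76 were above the count limit. Of these 12 rose and 8 fell, against 1.4% and 3.13% of all genes tested. A gene could pass the count limit through high libraries of 1 group alone, so these counts describe the 76 and not the 227. The median log2 fold change of the 76 was -0.22. A test against the 2-fold limit itself gave 6 higher and 5 lower. The others that rose were Gata3, Gata4, Sox21, Tbx18, Otx1, Pitx1 and Isl2, with log2 fold changes of 1.04 to 1.61.

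Hox genes, which set position along the body axis and are classical Polycomb targets, moved one way. Of 39 Hox genes in the files, 12 were above the count limit, 6 rose (against 1.4% of all genes tested) and none fell, and all 12 had a positive log2 fold change (0.27 to 4.14, median 1). Hoxa10 had 8.8, 8.77 and 8.91 CPM in QKO ESCs and 0.101, 0.652 and 0.733 CPM in TKO ESCs (log2 4.14, SE 0.286, adjusted p = 4.57e-10). Hoxa9 had 6.14, 5.72 and 5.98 CPM in QKO ESCs and 0.403, 0.76 and 0.943 CPM in TKO ESCs (log2 3.07, SE 0.262, adjusted p = 1.12e-08). Hoxa7 (log2 1.89), Hoxd13 (1.38) and Hoxc9 (1.07) were among the others that rose, and Hoxd13 and Hoxc9 lost their calls in a test against the 2-fold limit itself (adjusted p = 0.509 and 1). Hoxb9, Hoxc4, Hoxc10, Hoxc11, Hoxc12 and Hoxc13 did not pass the 2-fold limit, with log2 fold changes of 0.27 to 0.93. A gene could pass the count limit through high QKO libraries alone, so the shared sign describes these 12 genes and not the 39.

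The remaining genes that rose most were of other kinds. Dppa3, a maternal and germ-line factor that limits DNA methylation, had 7.41, 11.2 and 9.24 CPM in QKO ESCs and 0.806, 1.41 and 1.47 CPM in TKO ESCs (log2 2.91, SE 0.239, adjusted p = 6.89e-09), with a PclWT mean of 9.64 CPM. Rhox5, an X-linked homeobox gene of the reproductive tract, had 34.3, 39.4 and 36.4 CPM in QKO ESCs and 8.16, 7.06 and 6.81 CPM in TKO ESCs (log2 2.32, SE 0.104), with a PclWT mean of 42.2 CPM. QKO and PclWT levels of both genes were close to each other and above TKO. Cbx8, a chromodomain subunit of canonical PRC1, had 9.15, 8.64 and 10 CPM in QKO ESCs and 1.71, 1.74 and 2.83 CPM in TKO ESCs (log2 2.14, SE 0.196, adjusted p = 3.22e-08). Lrrc15, a leucine-rich repeat membrane protein (log2 2.83), Mobp, a myelin protein (2.36), and Rims1, a protein of the presynaptic active zone (2.15), completed the 15 genes ranked by size among those with libraries that did not overlap.

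**Figure D2:**
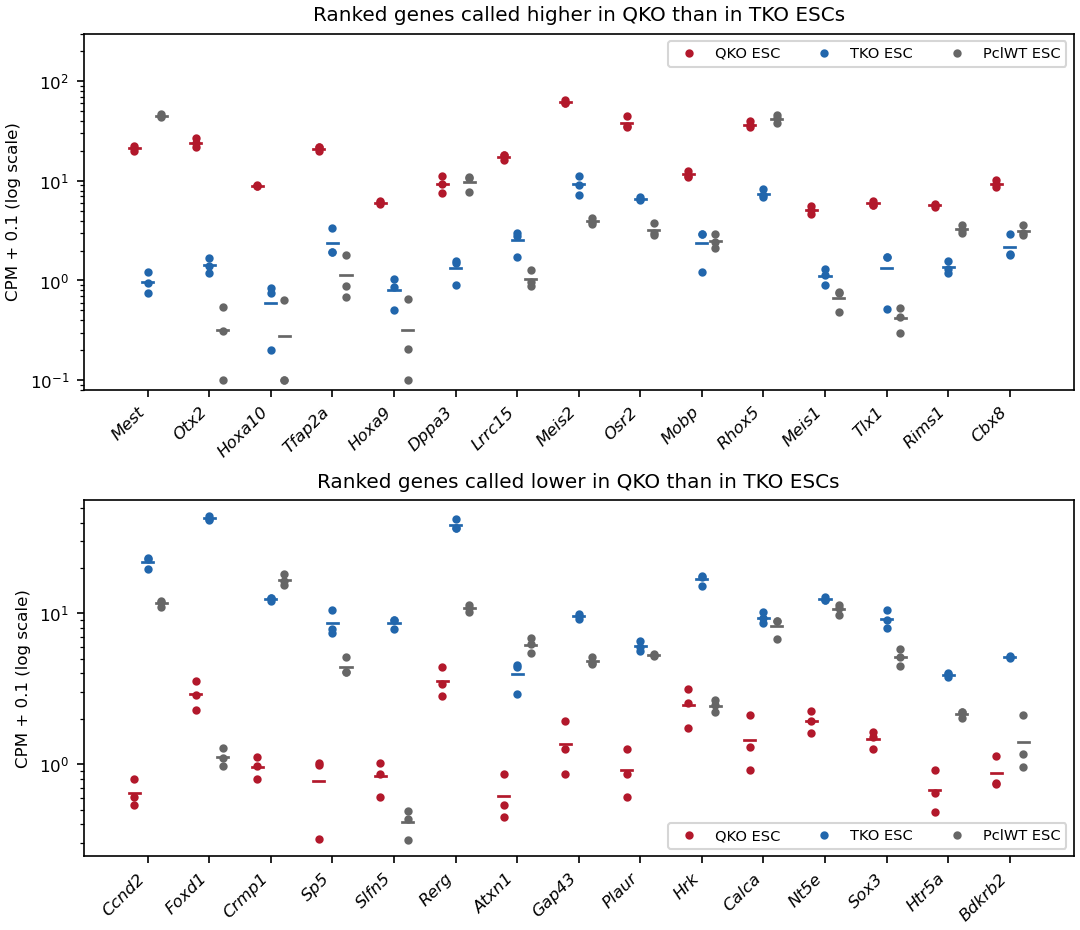
CPM plus 0.1 on a log scale for the 15 genes with the largest increase (top) and the largest decrease (bottom) in QKO against TKO ESCs, with PclWT ESCs beside them. Points are libraries and short lines are group means. In each gene the 3 QKO libraries lie wholly above or wholly below the 3 TKO libraries, which the ranking required.

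Promoter sequences are shown for 4 ranked genes, a pair that rose and a pair that fell, because Meis2 and Sp5 have a start site near a Polycomb site recruited on differentiation and moved in opposite directions. Each run is the 250 bases before a RefSeq start site in build GRCm38.p6, from 5′ to 3′ on the gene's strand, with CpG dinucleotides in capitals, since Polycomb-like proteins bind CpG-rich DNA. Over the promoters of 27018 genes in the same table, taking for each gene the start with the most CpG, the median was 6 CpG.
Mest (higher in QKO, chr6:30737800-30738049, plus strand, 14 CpG): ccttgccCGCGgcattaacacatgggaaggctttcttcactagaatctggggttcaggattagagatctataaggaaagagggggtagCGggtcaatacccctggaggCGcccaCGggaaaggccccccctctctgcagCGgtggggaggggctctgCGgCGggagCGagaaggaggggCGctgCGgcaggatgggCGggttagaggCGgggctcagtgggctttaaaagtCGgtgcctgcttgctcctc
Meis2 (higher in QKO, chr2:116064620-116064869, minus strand, 7 CpG): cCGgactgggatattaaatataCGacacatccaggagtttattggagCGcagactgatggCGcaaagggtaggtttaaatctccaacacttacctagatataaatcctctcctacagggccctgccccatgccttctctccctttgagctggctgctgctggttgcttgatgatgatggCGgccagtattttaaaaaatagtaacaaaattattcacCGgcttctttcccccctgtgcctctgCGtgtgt
Foxd1 (lower in QKO, chr13:98353995-98354244, plus strand, 12 CpG): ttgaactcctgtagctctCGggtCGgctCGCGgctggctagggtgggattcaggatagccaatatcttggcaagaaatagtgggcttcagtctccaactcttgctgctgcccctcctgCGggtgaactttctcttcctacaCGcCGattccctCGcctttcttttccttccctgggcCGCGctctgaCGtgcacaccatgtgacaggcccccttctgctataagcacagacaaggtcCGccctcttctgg
Sp5 (lower in QKO, chr2:70474673-70474922, plus strand, 6 CpG): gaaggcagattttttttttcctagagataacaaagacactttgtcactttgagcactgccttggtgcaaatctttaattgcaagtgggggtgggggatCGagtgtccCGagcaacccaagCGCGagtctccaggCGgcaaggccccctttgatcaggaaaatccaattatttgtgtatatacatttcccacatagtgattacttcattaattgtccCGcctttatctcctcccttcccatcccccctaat
At least as many CpG as in the Mest window were found in 31.7% of these promoters, and the shares were 48.6% for Meis2, 35.9% for Foxd1 and 52.6% for Sp5.

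The 15 genes that fell most were led by Ccnd2 and Foxd1. Ccnd2, cyclin D2, had 0.695, 0.508 and 0.435 CPM in QKO ESCs and 22.8, 23 and 19.7 CPM in TKO ESCs, a 39.1-fold difference (log2 -5.29, SE 0.207, adjusted p = 1.16e-13), and its PclWT mean was 11.5 CPM. Ccnd1, cyclin D1, had 43.2, 45.1 and 44.8 CPM in QKO ESCs and 97.4, 92.1 and 87.7 CPM in TKO ESCs (log2 -1.06, SE 0.057). Of 9 tested genes of the INK4, CIP/KIP and D cyclin group these were the pair that passed, and both fell (against 3.13% of all genes tested). Ccnd1 lost its call in the test against the 2-fold limit. Rerg, a RAS-related growth inhibitor, had 4.29, 3.3 and 2.72 CPM in QKO ESCs and 42.3, 36.8 and 37 CPM in TKO ESCs (log2 -3.49, SE 0.131). Ccnd2 and Rerg lie in the distal chromosome 6 stretch described below, where neighbouring genes were lower together.

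Foxd1, a forkhead factor of kidney stroma and retina, had 3.48, 2.8 and 2.17 CPM in QKO ESCs and 42.1, 43.8 and 41.6 CPM in TKO ESCs (log2 -3.92, SE 0.125, adjusted p = 4.85e-15). Its PclWT mean was 1.02 CPM, so TKO stood apart from both other groups. Sox3, an X-linked SOXB1 factor of neural progenitors, had 1.16, 1.53 and 1.41 CPM in QKO ESCs and 8.87, 10.4 and 7.85 CPM in TKO ESCs (log2 -2.72, SE 0.215). Its relative Sox1 fell too, with 9.85, 9.15 and 10.1 CPM in QKO ESCs and 27.3, 30.6 and 28.3 CPM in TKO ESCs (log2 -1.56, SE 0.101), against a PclWT mean of 0.633 CPM. Nkx6-2, Pou4f2 and T were among the other developmental factors that fell, with log2 fold changes of -1.64 to -1.20.

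Crmp1, a cytosolic phosphoprotein of growing axons, had 0.695, 1.02 and 0.869 CPM in QKO ESCs and 12.5, 12.5 and 12 CPM in TKO ESCs (log2 -3.83, SE 0.206). Gap43, a growth cone protein (log2 -2.87), Calca, the gene of calcitonin and its related peptide (-2.80), Htr5a, a serotonin receptor (-2.69), and Bdkrb2, a bradykinin receptor (-2.68), were further genes of neurons and signalling that fell. Sp5, a zinc finger factor induced by Wnt signalling, had 0.927, 0.889 and 0.217 CPM in QKO ESCs and 10.5, 7.82 and 7.33 CPM in TKO ESCs (log2 -3.67, SE 0.297). Slfn5, a Schlafen family gene (-3.51), Atxn1 (-2.90), Plaur, the urokinase receptor (-2.85), Hrk, a BH3-only cell death gene (-2.84), and Nt5e, the ectonucleotidase CD73 (-2.75), made up the rest of the 15. The 3 QKO libraries lay below the 3 TKO libraries in each of these genes, which the ranking required.

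Genes of the Polycomb machinery were read next. None of the 6 tested core PRC2 genes passed the 2-fold limit (log2 -0.17 to 0.26). Ezh2, the main methyltransferase, had a log2 fold change of -0.14 (SE 0.045), and Suz12 one of 0.17 (SE 0.044). Of the 14 canonical PRC1 genes tested, Cbx8 rose (against 1.4% of all genes tested) and none fell. Among those that did not pass, Cbx2 had a log2 fold change of 0.45 (SE 0.0581) and Cbx7 one of -0.26 (SE 0.0566). None of the 13 variant PRC1 genes passed. Aebp2, the partner of JARID2 in PRC2.2, had 280, 274 and 281 CPM in QKO ESCs and 379, 387 and 387 CPM in TKO ESCs (log2 -0.47, SE 0.0438, adjusted p = 4.63e-08), and it lies in the distal chromosome 6 stretch.

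Of 15 naive markers, Dppa3 rose and the other 14 had log2 fold changes of -0.24 to 0.41, and none of 9 general pluripotency markers passed (-0.33 to 0.39). Of 16 formative and primed markers, Otx2 rose and Sox3, Lef1, Lin28b and Etv4 fell. Lin28b, an inhibitor of let-7 maturation, had 14, 13.2 and 11.2 CPM in QKO ESCs and 36.4, 32.3 and 31 CPM in TKO ESCs (log2 -1.38, SE 0.0999). Of 731 genes on the 34 lists, 388 were above the count limit. Of these 30 rose (7.73%, against 1.4% of all genes tested) and 38 fell (9.79%, against 3.13%). These lists were assembled with earlier results of these data known, so these shares are descriptive.

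**Figure D3:**
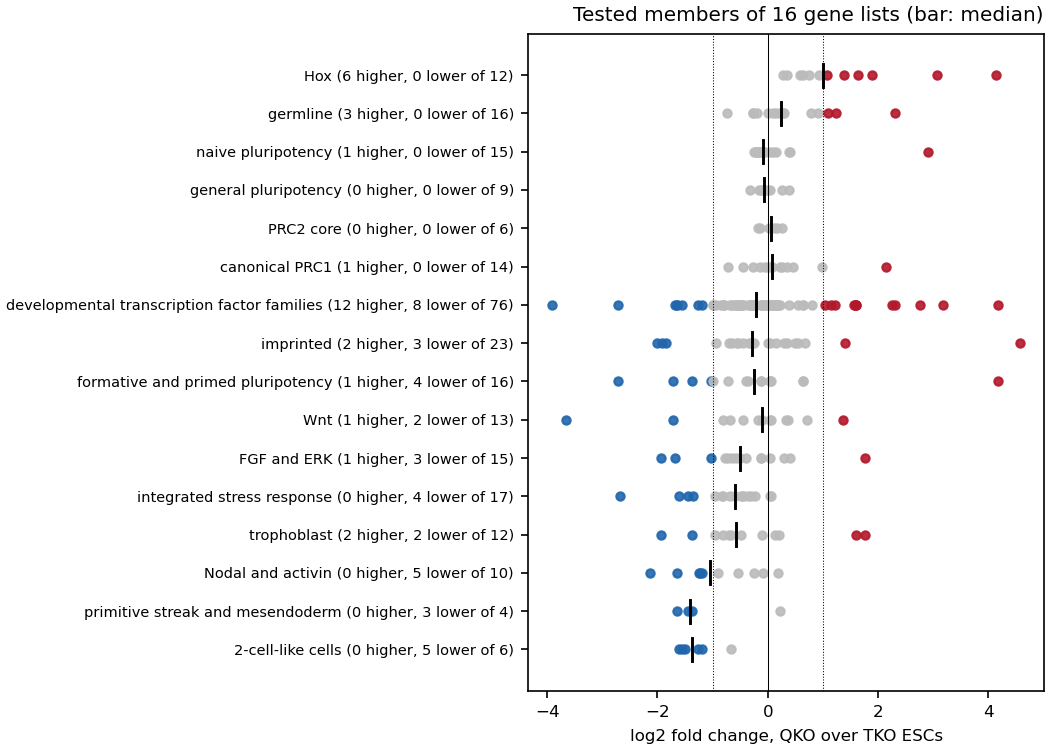
Log2 fold change of QKO over TKO ESCs (horizontal axis) for each tested member of a selection of the gene lists (rows, with counts called in each direction). Red points rose, blue points fell, grey points were not called and the bar is the median, which stands at 1 for Hox genes and at -1.38 for 2-cell-like genes.

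Genes of Nodal and activin signalling, which maintains primed pluripotency and patterns the mesendoderm, were called in one direction. Of 10 tested, 5 fell (against 3.13% of all genes), none rose and the median log2 fold change was -1.05. Fst, the secreted activin antagonist follistatin, had 5.56, 4.83 and 5.87 CPM in QKO ESCs and 26.3, 24.8 and 20.8 CPM in TKO ESCs (log2 -2.14, SE 0.13), with a PclWT mean of 5.6 CPM. Lefty1, a feedback inhibitor of Nodal, had 21.5, 23.5 and 22.9 CPM in QKO ESCs and 56, 49.2 and 50.1 CPM in TKO ESCs (log2 -1.19, SE 0.0748), and Lefty2 had a log2 fold change of -0.91. Gdf3, a TGF-beta family ligand in the distal chromosome 6 stretch, and Inhbb, the activin B subunit, also fell. Lefty1 and Inhbb lost their calls in a test against the 2-fold limit itself (adjusted p = 0.128 and 0.275). Nodal itself had 118, 107 and 115 CPM in QKO ESCs and 105, 98.9 and 96 CPM in TKO ESCs (log2 0.18, SE 0.0518). Of 18 primitive streak markers in the files, 4 were above the count limit. Eomes, T and Bmp4 fell (log2 -1.64 to -1.38), T and Bmp4 not in the test against the 2-fold limit. Gsc did not pass (0.22, adjusted p = 0.587). A marker could pass the count limit through high TKO libraries alone, so this describes the 4 markers and not the 18. Eomes had 14.8, 14.6 and 16.2 CPM in QKO ESCs and 40.3, 39.1 and 39.5 CPM in TKO ESCs.

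Of 16 markers of the rare 2-cell-like cells found in ESC cultures, 6 were above the count limit and 5 of these fell (median log2 -1.38), against 3.13% of all genes tested. A gene could pass the count limit through high TKO libraries alone, so this describes the 6 genes and not the 16. In a test against the 2-fold limit itself none of the 5 kept its call (adjusted p = 0.14 for Zscan4d). Zscan4d had 1.74, 1.65 and 1.63 CPM in QKO ESCs and 5.54, 4.45 and 4.82 CPM in TKO ESCs (log2 -1.56, SE 0.217), and Zscan4c, Usp17le, Usp17lb and Pramel7 fell by 1.19 to 1.61 on the log2 scale. Zscan4 and Usp17l genes are near-identical copies, so how reads were shared among them is uncertain. In bulk RNA, fewer such cells and less RNA in each cannot be told apart. Over all genes tested 1.4% rose and 3.13% fell. Of 9 tested primitive endoderm markers Gata4 and Dab2 rose (log2 1.04 and 1.08). Of 12 trophoblast markers Gata3 and Fgfr2 rose and Eomes and Lgals3 fell. Of 6 neuroectoderm markers Sox1 fell, and of 6 fibroblast markers Loxl1 rose and Twist1 fell. Across these called markers the lowest library was at 1.3 CPM (Lgals3 in QKO) and the highest at 40.3 CPM (Eomes in TKO). Gata4, Dab2, Loxl1 and Twist1 lost their calls in the test against the 2-fold limit. The files held 20 primitive endoderm, 16 trophoblast, 20 neuroectoderm and 18 fibroblast markers, so these counts describe the tested markers only. The part of other cell types in the results was not tested.

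Among signalling and stress genes, Spry4, an inhibitor of the FGF and ERK pathway, had 13.6, 14 and 13 CPM in QKO ESCs and 49.3, 53.9 and 51.6 CPM in TKO ESCs (log2 -1.93, SE 0.0807, adjusted p = 2.7e-13), with a PclWT mean of 8.32 CPM. The ligand Fgf17 (log2 -1.67) and the ETS factor Etv4 (-1.03) fell with it, and the receptor Fgfr2 rose (1.76), out of 15 tested. Over all genes tested 1.4% rose and 3.13% fell. Of 13 Wnt pathway genes, Notum, a secreted Wnt deacylase, rose (log2 1.36, SE 0.0772) and Sp5 and Lef1 fell. Of 17 genes of the integrated stress response, which adjusts amino acid metabolism, 4 fell (against 3.13% of all genes tested) and none rose, with a median of -0.60. Chac1, a glutathione-degrading enzyme, had 12.9, 15.6 and 11.5 CPM in QKO ESCs and 43.6, 39.4 and 37.8 CPM in TKO ESCs (log2 -1.61, SE 0.099), and Nupr1, Atf3 and Vldlr also fell, though Atf3 lost its call in the test against the 2-fold limit (adjusted p = 0.201). Pmaip1, the BH3-only gene that encodes NOXA, had 171, 181 and 183 CPM in QKO ESCs and 43.6, 41.8 and 47.3 CPM in TKO ESCs (log2 2.01, SE 0.0559, adjusted p = 1.17e-15), and it was the sole gene called among 17 tested p53 targets.

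Imprinted genes, expressed from a single parental allele, moved in both directions. Of 23 imprinted genes tested, Mest and Sgce rose and Grb10, Phlda2 and H19 fell. Over all genes tested 1.4% rose and 3.13% fell. Grb10, an adaptor that restrains growth, had 4.05, 3.05 and 3.48 CPM in QKO ESCs and 13.2, 14.7 and 12.4 CPM in TKO ESCs (log2 -1.92, SE 0.155), with a PclWT mean of 152.5 CPM. Phlda2, a placental growth restrictor, had 7.07, 5.34 and 4.56 CPM in QKO ESCs and 24.6, 21.7 and 22.2 CPM in TKO ESCs (log2 -2.02, SE 0.134). For H19, a non-coding RNA, the values were 0.579, 1.53 and 0.978 CPM in QKO ESCs and 3.63, 3.04 and 4.4 CPM in TKO ESCs. Of 16 germ-line genes, Rhox5, Tex19.1 and Mael rose and none fell, against the same shares over all genes tested. Sgce, H19 and Mael lost their calls in the test against the 2-fold limit. Tex19.1, a factor that protects germ cells from transposons, had 119, 129 and 127 CPM in QKO ESCs and 58.4, 50.3 and 50 CPM in TKO ESCs (log2 1.24, SE 0.0599).

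Genes with a start site within 2000 bp of a Polycomb site were called in both directions, with more lower than higher, as over all genes. The study sorted sites by whether SUZ12 was recruited, displaced or maintained on differentiation to EpiLCs. Of 345 tested genes near recruited sites, 13 rose (3.77%) and 25 fell (7.25%), with a median log2 fold change of -0.05. Of 56 near displaced sites, 1 rose (1.79%) and 6 fell (10.7%), and of 879 near the 1998 maintained sites that could be read, 37 rose (4.21%) and 75 fell (8.53%), with a median of -0.09. Genes near none of these sites had 119 of 10886 higher (1.09%) and 274 lower (2.52%). The mean level over recruited genes was 4.68, 4.67 and 4.68 log2 CPM in QKO ESCs and 4.8, 4.8 and 4.78 log2 CPM in TKO ESCs, and over maintained genes it was 3.13 in each QKO library and 3.24, 3.27 and 3.26 in TKO libraries.

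Recruited genes that rose most were Meis2, Khdc3, St8sia1, Ak4 and Notumos. Ak4, a mitochondrial adenylate kinase, had 395, 424 and 429 CPM in QKO ESCs and 151, 141 and 147 CPM in TKO ESCs (log2 1.51, SE 0.0485, adjusted p = 4.85e-15), and Khdc3, an oocyte and embryo gene, had 22.8, 21.2 and 25.5 CPM in QKO ESCs and 5.75, 5.65 and 6.7 CPM in TKO ESCs (log2 1.95, SE 0.123). Notumos overlaps Notum and the counts do not use strand, so reads of these genes cannot be told apart. Sp5, Rerg, Atxn1, Nt5e and Fst fell most among recruited genes. The displaced gene that rose was Selenoi, a phospholipid synthesis enzyme (log2 1.20, SE 0.165), and Lef1, Stc2, Emb, Ina and Slc16a3 fell (log2 -1.72 to -1.09). For maintained genes, the largest increases were in Mest, Otx2, Rims1, Prox1 and Gnal, and the largest decreases in Ccnd2, Crmp1, Slfn5, Vldlr and Pianp.

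A run of neighbouring genes on distal chromosome 6 was lower as a block. Chromosome 6 had 57 of 577 tested genes called lower (9.88%), against 2.01% to 4.27% on every other chromosome. With genes in order along each chromosome, a running median over 15 genes left the range of -0.3 to 0.3 for 20 genes or more in 3 runs, all on chromosome 6 between Edem1 and Gm15706. The span from Rad18 to Gm15706 (chr6:112619850-145251849, GRCm38) held 191 tested genes, of which 171 had a negative log2 fold change and 46 fell, with a median of -0.63. The median was -0.06 over the 363 genes before the span, 0.33 over the 23 genes after it and 0.01 over all other chromosomes. Milder shifts were present on chromosome 1 (median 0.10, 33.7% of genes below 0) and chromosome 8 (-0.13, 73.1% below 0). In EpiLCs the medians of these chromosomes were 0.08 and -0.135. This span was defined after its values were seen and is described without a test.

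At the centromeric side Edem1 had a log2 fold change of -0.23 and its neighbour Rad18 one of -0.81, and at the far side Gm15706 had one of -1.53 and its neighbour Rassf8 one of 0.57. From Bcat1 to Gm15706 all 6 tested genes fell, and the median was -1.82. Bcat1, a branched-chain aminotransferase, had 516, 536 and 537 CPM in QKO ESCs and 2095, 1979 and 1890 CPM in TKO ESCs (log2 -1.91, SE 0.0441), which was the smallest adjusted p of all genes (6.12e-17). Dppa3 and St8sia1 were the 2 genes in the span that rose. The median ratio to the TKO mean over the span was -0.61, -0.67 and -0.61 on the log2 scale in the 3 QKO libraries.

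The share of all counts in the span was 2.08%, 2.04% and 2.09% in QKO ESCs and 3.18%, 3.18% and 3.16% in TKO ESCs, against 2.48% to 2.5% in PclWT ESCs. The TKO share was thus above that of PclWT and the QKO share below it, and the groups did not overlap. QKO EpiLCs held 1.85% to 1.95% and TKO EpiLCs 2.64% to 2.65%, and the median over the 180 span genes tested there was -0.45. In J2KO against J2WT ESCs the median over the span was -0.07. A change in DNA copy number of this stretch was not tested. Outside the span 168 of 11978 tested genes rose (1.4%) and 335 fell (2.8%), and a fit without its genes gave 167 and 340.

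**Figure D4:**
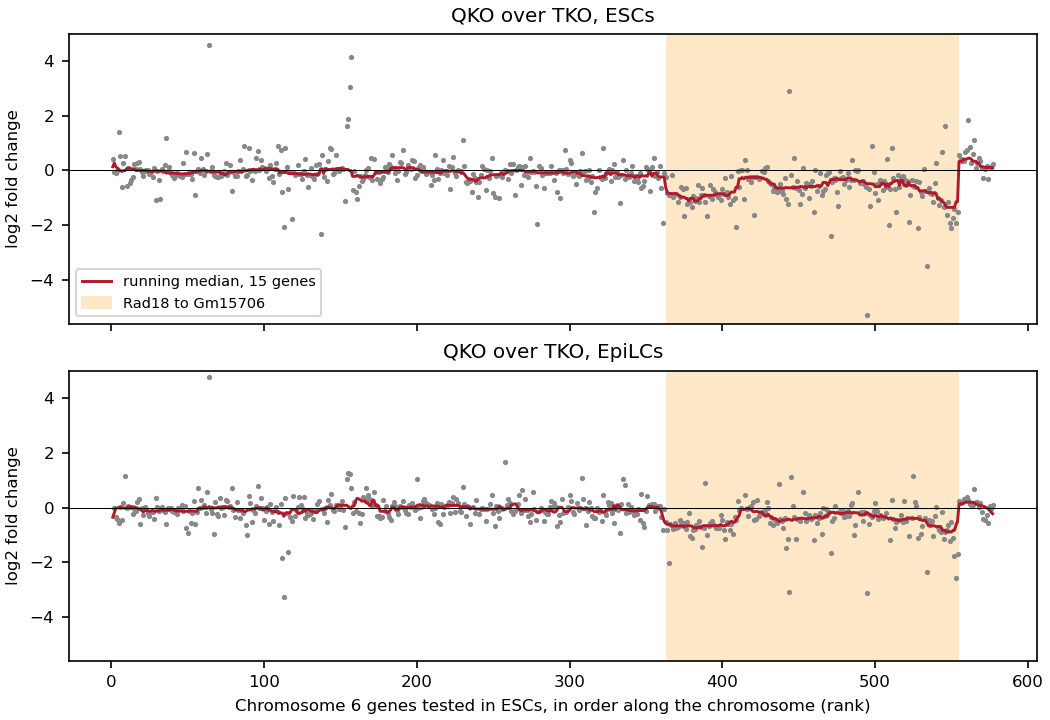
Log2 fold change of QKO over TKO in ESCs (top) and EpiLCs (bottom) for chromosome 6 genes in their order along the chromosome, with a running median over 15 genes in red. The shaded genes from Rad18 to Gm15706 have medians of -0.63 in ESCs and -0.45 in EpiLCs, with a sharp return at the right edge.

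Both knockouts also differed from PclWT ESCs, and these values share libraries with the comparison above. QKO ESCs had 713 genes higher (5.8% of 12302) and 991 lower (8.06%) than PclWT, and TKO ESCs had 814 higher (6.54% of 12453) and 905 lower (7.27%). Of the 170 genes higher in QKO than in TKO, QKO was within 2-fold of PclWT for 91, and PclWT lay between the knockouts for 75. Of the 381 lower genes, QKO was within 2-fold of PclWT for 213, and PclWT lay between the knockouts for 193. Hoxa10 was at 0 to 0.535 CPM in PclWT ESCs, and Foxd1 at 0.873 to 1.18 CPM. Runs of neighbouring genes by the rule used on chromosome 6 numbered 30 for QKO against PclWT and 27 for TKO against PclWT, most of them on chromosomes 1 and 11. By that rule QKO against TKO had runs on chromosome 6 alone, though milder shifts on other chromosomes stayed below its limit.

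The response was next compared between stages. QKO against TKO EpiLCs gave 186 genes higher (1.46% of 12762) and 432 lower (3.39%). Of the 170 genes that rose in ESCs, 133 were tested in EpiLCs, where 34 (20% of the 170) rose and 5 fell, and the 34 were 18.3% of the genes that rose there. Of the 381 that fell in ESCs, 316 were tested in EpiLCs, where 78 (20.5% of the 381) fell and 3 rose, and the 78 were 18.1% of the genes that fell there. The difference between stages was tested gene by gene, as the ESC difference minus the EpiLC difference. It was positive for 1389 of 12634 genes (11%) and negative for 1661 (13.1%) at an adjusted p under 0.05.

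Mest rose by a log2 of 4.58 in ESCs and of 4.79 in EpiLCs, and the difference between stages was -0.20 (SE 0.33, adjusted p = 0.734). Otx2 rose in both, by 4.17 in ESCs and 2.13 in EpiLCs, and differed between them (2.04, adjusted p = 9.89e-08). Dppa3 rose in ESCs and fell in EpiLCs (log2 -3.09), a difference of 6 (adjusted p = 1.37e-10). Dnmt3b, a de novo DNA methyltransferase, had means of 131 CPM in QKO ESCs and 84.2 CPM in TKO ESCs, against 214 CPM in QKO EpiLCs and 566 CPM in TKO EpiLCs, a difference of 2.07 (SE 0.0765, adjusted p = 2.44e-15). Tbx3, a naive pluripotency factor, had means of 565 CPM in QKO ESCs and 530 CPM in TKO ESCs, and of 144 CPM in QKO EpiLCs and 41.9 CPM in TKO EpiLCs, a difference of -1.64 (SE 0.066, adjusted p = 8.27e-15). Spry4 fell in ESCs and had a log2 fold change of 0.77 in EpiLCs, a difference of -2.70 (SE 0.0882, adjusted p = 3.11e-16). Of the 15 naive markers, 7 rose and Dppa3 fell in QKO against TKO EpiLCs, where 1.46% of all genes tested rose and 3.39% fell. In ESCs Dppa3 alone of these markers was called.

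**Figure D5:**
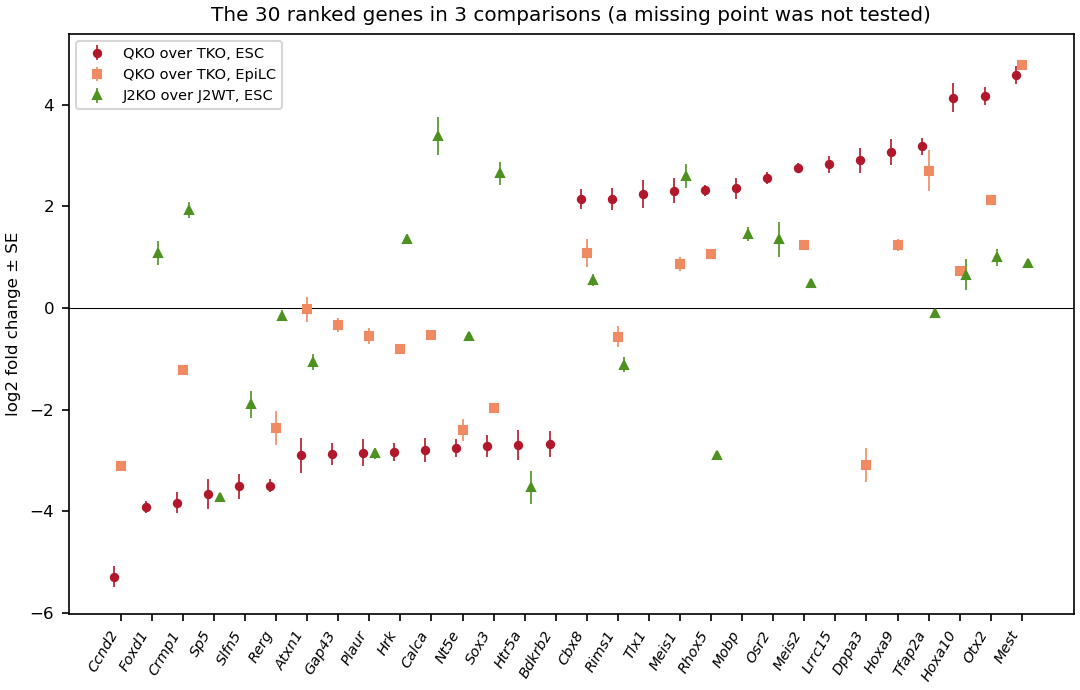
Log2 fold change with its SE (vertical axis) for the 30 ranked genes in QKO over TKO ESCs, QKO over TKO EpiLCs and J2KO over J2WT ESCs. Ccnd2 and Mest lie on the same side of 0 in ESCs and EpiLCs, Dppa3 lies on opposite sides, and the J2KO values of Calca, Sox3 and Rhox5 lie opposite to the QKO values.

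JARID2 loss was also read on a background with the Polycomb-like proteins present. J2KO against J2WT ESCs gave 916 genes higher (6.82% of 13432) and 877 lower (6.53%). Of the 170 genes that rose in QKO against TKO, 147 were tested in J2KO, where 35 (20.6% of the 170) rose and 25 fell, and the 35 were 3.82% of the genes that rose there. Of the 381 that fell, 333 were tested in J2KO, where 57 (15% of the 381) fell and 79 rose, and the 57 were 6.5% of the genes that fell there. The difference between backgrounds was positive for 3909 of 13017 genes (30%) and negative for 4084 (31.4%) at an adjusted p under 0.05. The paper lists the J2WT and J2KO lines and the PclWT and TKO lines from different laboratories. Line origin and background therefore cannot be told apart in this difference. In the J2 lines, runs of neighbouring genes shifted together over 756 genes of chromosome 11 (run medians 0.42 to 0.66) and 141 of chromosome 14 (0.92), and a fit without chromosomes 11 and 14 and the chromosome 6 span gave 3327 positive and 3410 negative differences.

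Sp5 fell in both backgrounds, with a log2 fold change of -3.67 in QKO against TKO and of -3.72 in J2KO against J2WT, and Plaur had -2.85 and -2.86. Meis1 rose in both (2.31 and 2.60). Sox3 and Calca fell in QKO against TKO and rose in J2KO against J2WT (2.65 and 3.38), and Rhox5 rose in QKO against TKO and fell in J2KO against J2WT (-2.90). Lefty2, an inhibitor of Nodal, had means of 200 CPM in QKO ESCs and 374 CPM in TKO ESCs, and of 168 CPM in J2KO ESCs and 73 CPM in J2WT ESCs, a difference of -2.09 (SE 0.0557, adjusted p = 1.03e-20). Ak4 rose in QKO against TKO and fell in J2KO against J2WT, where its means were 132 CPM in J2KO ESCs and 281 CPM in J2WT ESCs, a difference of 2.62 (SE 0.0565, adjusted p = 1.81e-22).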

How the data were processed

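RNA was measured in 36 poly(A) libraries. The authors deposited unnormalised read counts for every gene, made by aligning reads with STAR and counting per Ensembl gene of build GRCm38, and the unstranded column was used. Each of the 6 ESC libraries compared held 8097673 to 10182668 counts in genes, and 24.49% to 27.08% of a library's reads, not assigned to a single gene, stayed out of all totals.

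Genes with a mean normalised count of at least 15 were tested with edgeR 4.0.16 (quasi-likelihood test, TMM scaling, R 4.3.3) with Benjamini-Hochberg adjustment, on the 6 libraries for the main comparison, and called where the adjusted p fell below 0.05 and the change exceeded 1 on the log2 scale. SEs were derived from the F statistic. CPM were scaled by TMM over all 36 libraries. Differences between stages and between backgrounds were interaction contrasts called on adjusted p alone. The count test and DESeq2 1.42.0 were tested on simulated data. There edgeR recovered 100% of genes changed by a log2 of 1.5 or 2.5 among 12180 in the main comparison, with 1 false call. In the contrasts between stages and between backgrounds it recovered 99% at a log2 of 1.5, with 13 and 8 false calls. Changes were simulated only above a higher count limit and with the same spread in every gene. They do not show recovery for lower counts or noisier genes.

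Named genes were the 15 largest changes in each direction among those called with libraries that did not overlap, the 5 largest per Polycomb site class and direction, the called members of the gene lists, and the 5 smallest p-values per contrast and direction, leaving pseudogenes and predicted genes out of the rankings. Other named genes were chosen after their values were seen, and some genes that the rule names are not reported here. The members and lists were chosen with earlier results of these data known. Symbols and positions came from a GENCODE annotation of GRCm38 (55141 of 55401 IDs matched), and start sites within 2000 bp of a site counted as near it. The maintained site list was read only in part (1998 sites), so class values are descriptions, and no p is given for class means. Running medians and the ends of the chromosome 6 span were chosen after the data were seen. Figures were drawn with Python 3.11.15 and matplotlib 3.10.9. Alternatives were DESeq2, other scalings, count limits, a test against the fold limit, a fit over more libraries, a replicate block and leaving out each replicate.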

Additional observations from a re-analysis of the deposited data

Results flagged for a closer look

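Differences between stages and between backgrounds were tested directly. With its sign kept, the QKO minus TKO log2 difference was higher in ESCs than in EpiLCs for 1389 genes and lower for 1661. A lower value can thus be a larger decrease. On the log2 scale the genes with the smallest p-values had differences of 2.07 for Dnmt3b, 1.57 for Gja1, 1.497 for Pmaip1, 1.28 for Col4a1 and 1.56 for Col4a2, and of -2.70 for Spry4, -1.62 for Mreg, -1.64 for Tbx3, -1.76 for Spp1 and -1.66 for Stmn2.

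With its sign kept, the QKO minus TKO log2 difference was above the J2KO minus J2WT difference for 3909 genes and below it for 4084. These pairs of lines also differ in origin. The genes with the smallest p-values had log2 differences of 5.02 for Steap3, 3.88 for Ptges, 2.62 for Ak4, 3.26 for Peg10 and 2.95 for Calcoco2, and of -5.58 for Armcx2, -2.09 for Lefty2, -3.68 for Camk2b, -4.20 for Tro and -2.99 for Slc16a3. Groups of 3 libraries are too small to test a single library as standing apart.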

How the results depend on the processing

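No result changed direction under the alternatives run, and 63 of 97 named genes of the main comparison lost their call in none of those that tested them (56 of the 97 were tested with a mean count of at least 50, 90 in the fit over 18 libraries and 91 without the chromosome 6 span). The 97 and the 63 include Jarid2 and Mtf2, which were not called and had no call to lose. A test against the 2-fold limit itself (glmTreat) gave 46 genes higher and 131 lower, 18 and 20 among list members, 7 and 15 near recruited, 0 and 2 near displaced, and 7 and 24 near maintained sites. Without a count limit, 333 genes were higher and 709 lower, with 12 lower near displaced and 61 higher and 131 lower near maintained sites, and against PclWT the counts were 1175 and 1798 for QKO and 1317 and 1654 for TKO. With a mean count of at least 50, 74 were higher and 204 lower, 13 and 25 among list members, 3 lower near displaced, and 13 and 42 near maintained sites. A fit over 18 libraries gave 10 lower near displaced sites, and DESeq2 gave 885 positive differences between stages. The cause was not tested, except that a count limit changes the genes tested. The test against the 2-fold limit ended the calls of 34 named genes, among them Lef1, Etv4, Nkx6-2, Pou4f2, Selenoi, Ina, Slc16a3 and Notumos. Usp17lb lost its call with DESeq2, Gata4 without QKO replicate 2, Loxl1 without QKO replicate 3, and Pdk1 and Hoxc9 without TKO replicate 3. Leaving out each replicate gave 157 to 179 genes higher and 358 to 433 lower, 27 to 32 and 38 to 47 among list members, 11 to 14 and 25 to 30 near recruited, 1 and 6 to 8 near displaced, 33 to 40 and 70 to 89 near maintained sites, and a chromosome 6 span median of -0.67 to -0.62. Differences between stages numbered 1138 to 1375 positive and 1395 to 1658 negative, those between backgrounds 3720 to 3932 and 3896 to 4106, QKO against PclWT 702 to 745 and 937 to 1076, and TKO against PclWT 748 to 833 and 858 to 976. The class means differed (QKO minus TKO, log2 CPM) by -0.12 to -0.11 for recruited, -0.17 to -0.15 for displaced and -0.14 to -0.12 for maintained genes. Replicate numbers did not pair QKO with TKO libraries (correlations of same-numbered deviations -0.06, -0.07 and 0.03), and with a replicate block 170 genes were higher and 381 lower. Low counts limit the precision of the folds of genes near 1 CPM.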
